A study of Homo sapiens with 8 samples.

Results

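The nuclear genes of the mitochondrial respiratory chain were followed across 4 groups of A375-LM3 cells, a derivative of the human melanoma line A375. Members were all genes whose array symbol begins with NDUF and a letter A, B, C, S or V followed by a digit, with UQCR, with COX and a digit from 4 to 8, or with ATP5, together with the SDH genes lettered A to D. This found 84 genes measured by 113 probes, of 20046 named genes and 47323 probes on the array. Of these, 76 were bright enough to be tested, as were 12415 genes in all. By complex, 36 genes belonged to complex I, 3 to complex II, 9 to complex III, 17 to complex IV and 19 to complex V, of which 33, 3, 9, 12 and 19 were tested. No probe carried SDHB as its only symbol, so complex II was read from SDHA, SDHC and SDHD. The name pattern also took in a few genes that encode no subunit: the antisense transcript NDUFB2-AS1, the pseudogenes UQCRBP1 and ATP5F1EP2, and ATP5IF1, an inhibitor of the ATP synthase.

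The respiratory chain sits in the inner mitochondrial membrane. Complexes I and II pass electrons from NADH and succinate to ubiquinone, complex III passes them to cytochrome c, and complex IV, cytochrome c oxidase, passes them to oxygen. The proton gradient built on the way drives complex V, the ATP synthase. Most subunits are encoded in the nucleus and a core set in the mitochondrial DNA, and melanomas are known to differ in how much they rely on respiration.

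The 4 groups were cultured cells carrying a vector, cultured cells expressing JMJD3, and tumor-dissociated cells of each of these kinds, with 2 arrays a group and 8 in all. JMJD3, encoded by KDM6B, is a demethylase that removes methyl groups from lysine 27 of histone H3. The cultured cells had been grown for 1 day, and the tumor-dissociated cells came from primary tumors formed by A375-LM3 cells and then spent 3 passages in culture, so growth in a tumor, dissociation and time in culture cannot be told apart. All 4 groups share the A375-LM3 background. The labels do not say whether the arrays of a group came from separate cultures or tumors. Nor do they say whether the JMJD3 cells are 1 clone, or in which host the tumors grew. The p-values therefore set a difference against the scatter of these arrays, which may be technical.

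RNA was hybridised to Illumina HumanHT-12 V4 bead arrays, on which each probe gives 1 intensity. Values are log2 intensities after background correction, and a gene is represented by its brightest probe. Levels are compared between arrays for the same gene only. A gene was called where limma gave an adjusted p under 0.05 over all 12415 genes. At 2 arrays a group, the smallest p of an exact permutation test is 0.333, so every call rests on the spread that limma pools over genes and groups. In RNA from a whole culture, fewer cells of a type and less RNA per cell cannot be told apart.

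The sorted columns of the arrays were nearly identical, which holds counts of bright probes alike. Each array had 19913 to 19923 probes above the background level of 161 intensity units. The KDM6B probe lay near that level, with group means of 145 to 161, and exceeded it on 1 of 8 arrays. Of 8 melanocyte lineage markers 3 were tested, SOX10, MITF and PMEL, and none was called in a comparison of groups with all arrays. Their list had a summed intensity of 3323 to 4324 in cultured vector and 3189 to 3803 in cultured JMJD3 cells. In tumor-dissociated cells it was 1530 to 2912 with vector and 2481 to 3540 with JMJD3. SOX10, a transcription factor of that lineage, was well above background on 7 arrays, with log2 values of 10.08 to 11.55, and at 7.0 on tumor-dissociated vector replicate 2. MLANA, TYR and S100B were above background on no array. Of 10 fibroblast markers 9 were tested, and their summed intensity was 2659 to 2751 in cultured vector, 2814 to 2888 in cultured JMJD3, 4619 to 5489 in tumor-dissociated vector and 4267 to 5685 in tumor-dissociated JMJD3 cells. Against culture, 6 of the 9 rose in tumor-dissociated vector and 5 in tumor-dissociated JMJD3 cells. THY1, another fibroblast marker, was above background on no array. Of 10 leukocyte markers 5 were tested, and 1 fell and none rose in each comparison of origin. The summed intensity of this list was 4657 to 4841 in cultured vector and 5003 to 5087 in cultured JMJD3 cells. It was 5425 to 5869 in tumor-dissociated vector and 5544 to 7251 in tumor-dissociated JMJD3 cells. The leukocyte genes PTPRC and CD3E were above background on no array. Of 8 endothelial markers 2 were tested, PECAM1 and ESAM. In tumor-dissociated JMJD3 cells PECAM1 rose by 0.82 against culture (limma adjusted p = 0.0225). ESAM had a negative difference there and was not called, and the median of both was 0.31. CDH5 and VWF were above background on no array. In earlier results of these data 2 arrays stood apart, tumor-dissociated vector replicate 2 and tumor-dissociated JMJD3 replicate 1, and values without them, which leave 1 array in each tumor-dissociated group, are given for the calls and for the counts, medians and genes the results turn on. Without them 7 fibroblast markers rose in vector and 5 in JMJD3 cells, and PECAM1 differed by 0.77 and did not pass (limma adjusted p = 0.0691).

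The respiratory chain genes were nearly flat across the 4 groups, as were genes of cytosolic ribosomal proteins. Of the 76 members tested, 75 passed the test in no comparison. The exception was COX7B2, an isoform of a small complex IV subunit. It was the only member with an adjusted p under 0.05 for any difference among the 4 groups, where 11.9% of all genes tested were called. Its adjusted p in that limma test was 0.0338 without the 2 arrays that stood apart.

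The promoters of COX7B2, of COX7B, which encodes the common form of the same subunit, and of SDHA, the member with the next smallest p in the comparison that called COX7B2, are shown because the results turn on these genes. They are RefSeq sequences of GRCh38.p14, from 250 bases before to 50 bases after each annotated gene start, written 5′ to 3′ on the strand of the gene. Capitals mark CCAAT or its reverse complement in the COX7B genes, and GCGCANGCG, the core of the site of the nuclear respiratory factor NRF1, in SDHA. The COX7B2 window lies at chr4:46909196-46909495 on the minus strand, the COX7B window at chrX:77899218-77899517 on the plus strand, and the SDHA window at chr5:218070-218369 on the plus strand.
COX7B2: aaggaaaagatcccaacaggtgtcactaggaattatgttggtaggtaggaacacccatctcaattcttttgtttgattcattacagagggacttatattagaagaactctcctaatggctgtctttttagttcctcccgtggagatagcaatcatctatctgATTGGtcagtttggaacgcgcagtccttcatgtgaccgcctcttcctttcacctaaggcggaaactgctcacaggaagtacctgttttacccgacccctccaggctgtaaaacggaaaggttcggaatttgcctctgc
COX7B: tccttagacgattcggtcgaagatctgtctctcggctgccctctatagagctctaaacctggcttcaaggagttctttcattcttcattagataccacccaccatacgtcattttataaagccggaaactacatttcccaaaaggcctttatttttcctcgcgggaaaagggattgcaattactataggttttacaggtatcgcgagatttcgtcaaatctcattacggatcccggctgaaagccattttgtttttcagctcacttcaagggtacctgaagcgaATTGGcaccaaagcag
SDHA: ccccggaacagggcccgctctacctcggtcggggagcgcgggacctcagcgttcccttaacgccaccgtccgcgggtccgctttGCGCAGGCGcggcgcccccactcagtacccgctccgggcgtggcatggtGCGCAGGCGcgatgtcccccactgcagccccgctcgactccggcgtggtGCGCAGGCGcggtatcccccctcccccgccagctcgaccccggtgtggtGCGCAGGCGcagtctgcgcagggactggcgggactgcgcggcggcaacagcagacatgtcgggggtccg

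Promoters were found for 68 of the 84 members among those of 27305 genes, and 4 motifs were searched for as exact letters on both strands. NRF1 and the ETS factor GABP are known activators of respiratory chain genes. GCGCANGCG was in 21 member promoters (30.9%) and in 8.05% of all promoters, and CCGGAAG, an ETS core, in 19 (27.9%) against 10.7%. AAGATGG, the core of the YY1 site, was in 15 (22.1%) against 6.06%. CCAAT was in 25 (36.8%) against 35.7%. The ETS and YY1 letters can overlap at AAG, the motifs were chosen with results of these data known, and a match says only that the letters are present. The median member promoter held 22.5 CpG, against 14 over all promoters, and its median GC content was 61%, against 58.3%, so the searched letters and the base composition differ together. The COX7B2 window held none of the first 3 motifs, nor did that of COX7B, which was not called. At least 1 of these motifs was in 41 of the 68 member promoters (60.3%, against 21.8% of all promoters).

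COX7B2 lies on chromosome 4, from 46734827 to 46909245 in GRCh38.p14, and was measured by 1 probe that was above background on every array. It is known as the form of subunit VIIb found mainly in testis. Its log2 intensity was 8.09 and 8.09 in cultured vector cells, 8.39 and 8.54 in cultured JMJD3 cells, 8.47 and 8.47 in tumor-dissociated vector cells, and 9.83 and 9.18 in tumor-dissociated JMJD3 cells. Both tumor-dissociated JMJD3 arrays lay above the 6 others, and the cultured vector arrays were the lowest.

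In JMJD3 cells COX7B2 was higher in tumor-dissociated than in cultured cells, by 1.04 ± 0.21 (log2 difference, SE, n = 2 arrays a group, 95% interval 0.57 to 1.52, limma adjusted p = 0.0273), which is 2.06-fold. The difference between JMJD3 and vector in tumor-dissociated cells had nearly the same size, 1.04 ± 0.21 (0.56 to 1.51), and did not pass the test (limma adjusted p = 0.0695), and both share the tumor-dissociated JMJD3 arrays. Leaving out the 2 arrays that stood apart gave 0.71 (limma adjusted p = 0.289). The JMJD3 difference in culture was 0.38 ± 0.21 (limma adjusted p = 1.00), and that between origins in vector cells was 0.38 ± 0.21 (limma adjusted p = 0.300). The JMJD3 difference was larger in tumor-dissociated than in cultured cells by 0.66 ± 0.30, with an interval from -0.01 to 1.33, and this difference of differences was not called (limma adjusted p = 0.735). The call was lost when any 1 of 5 arrays was left out. Its limma adjusted p was 0.0514 without either cultured vector array, 0.118 or 0.154 without cultured JMJD3 replicate 1 or 2, and 0.103 without tumor-dissociated JMJD3 replicate 1, when the log2 difference was 0.72. Without both arrays that stood apart, the difference between origins was 0.72 (limma adjusted p = 0.0757). When only the 2 groups compared were fitted, the limma adjusted p was 0.0733.

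COX7B, on the X chromosome, encodes the widely expressed form. It measured 11.93 and 11.94 in cultured vector, 12.08 and 11.95 in cultured JMJD3, 12.25 and 11.78 in tumor-dissociated vector, and 12.33 and 12.17 in tumor-dissociated JMJD3 cells. The lowest array was tumor-dissociated vector replicate 2, and that group spanned both cultured groups. COX7B was not called in any comparison, and its difference between origins in JMJD3 cells was 0.23 ± 0.19, with an interval from -0.18 to 0.65.

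**Figure D1:**
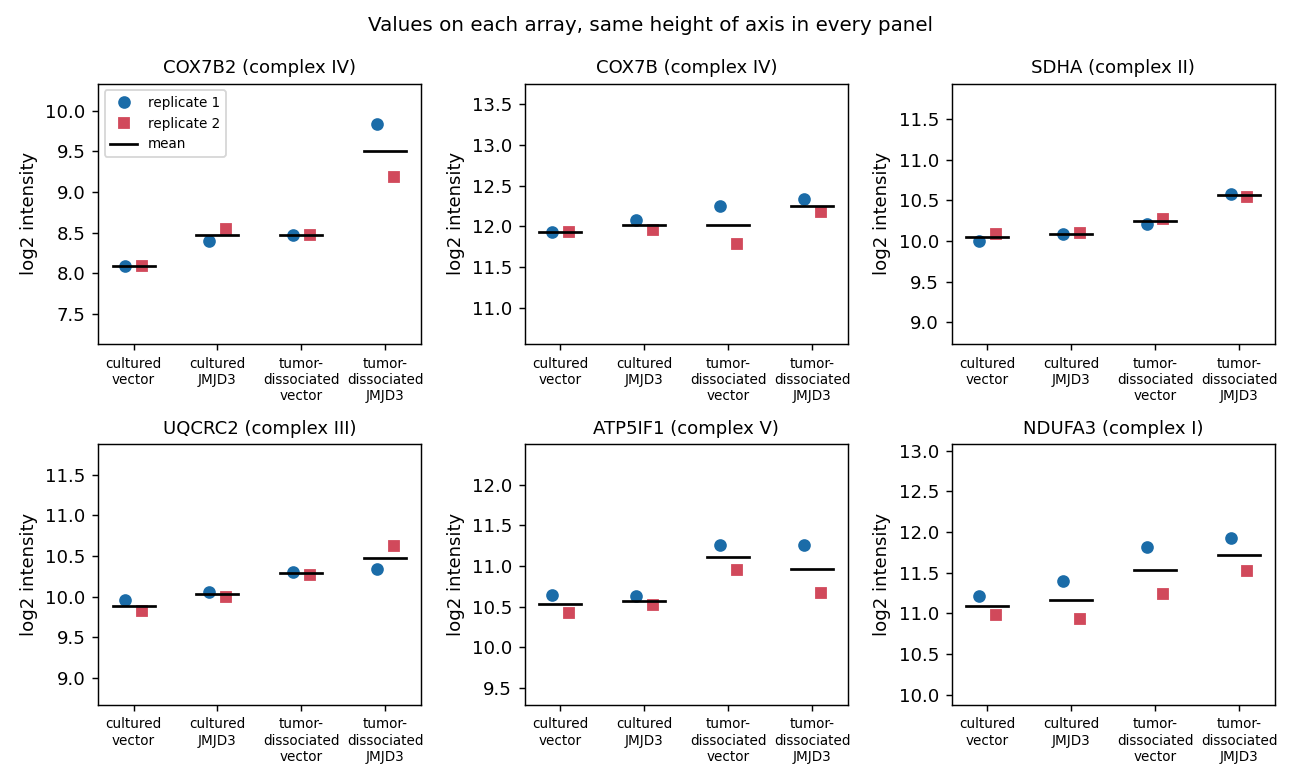
Log2 intensity of 6 members on each of the 8 arrays, by group, with replicate 1 as circles, replicate 2 as squares and the group mean as a line. Every panel spans the same number of log2 units. COX7B2 was highest on both tumor-dissociated JMJD3 arrays (9.83 and 9.18), and COX7B shows no such step.

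The other members of complex IV moved little. Of its 12 genes tested, 11 had a positive difference between tumor-dissociated and cultured JMJD3 cells, with a median of 0.16, and the lowest was COX5A at -0.00. In vector cells the median between origins was 0.13, with 10 positive and COX5A again the lowest at -0.01. COX4I1, a main nuclear subunit, had differences of -0.00, 0.17, 0.01 and 0.18 for JMJD3 in culture, JMJD3 in tumor-dissociated cells, origin in vector and origin in JMJD3 cells. COX6C was the lowest of the complex for JMJD3 in culture (-0.13), and COX7C for JMJD3 in tumor-dissociated cells (-0.11). None of these passed.

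5 members of complex IV were at background, and all are isoforms made in particular tissues or conditions. COX4I2, which replaces COX4I1 in lung and under low oxygen, read 121 to 140 intensity units over the 8 arrays. The heart and skeletal muscle forms COX6A2 and COX7A1 read 131 to 150 and 126 to 137, and the testis forms COX6B2 and COX8C read 127 to 155 and 129 to 146. None exceeded the background level on any array, so among the testis forms of complex IV measured here COX7B2 alone was tested. The forms they replace were bright, and COX4I1, COX6A1, COX6B1, COX7A2 and COX8A were all tested and not called.

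Complex I, the NADH dehydrogenase, was the largest group, with 33 genes tested and none called. Its median differences were 0.06 for JMJD3 in culture, 0.03 for JMJD3 in tumor-dissociated cells, 0.15 for origin in vector cells and 0.09 for origin in JMJD3 cells, and 28, 23, 26 and 23 of the 33 were positive. NDUFA3, an accessory subunit, was the highest of the complex in both comparisons of origin. It measured 11.21 and 10.98 in cultured vector, 11.40 and 10.92 in cultured JMJD3, 11.82 and 11.24 in tumor-dissociated vector, and 11.93 and 11.52 in tumor-dissociated JMJD3 cells. Replicate 1 was the higher array in every group. In JMJD3 cells the groups did not overlap, and the difference of 0.56 ± 0.25 was not called (limma adjusted p = 0.209). In vector cells it was 0.43 ± 0.25 (limma adjusted p = 0.320). These were 0.35 and 0.72 without the 2 arrays that stood apart. NDUFB5, an accessory subunit of the membrane arm, had the smallest p of complex I in vector cells, at 0.43 ± 0.17 (limma adjusted p = 0.146).

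NDUFS1, which carries iron-sulfur clusters in the arm that takes electrons from NADH, had the largest difference of differences of the members. It measured 6.78 and 6.99 in cultured vector, 6.71 and 6.12 in cultured JMJD3, 6.36 and 6.68 in tumor-dissociated vector, and 6.55 and 7.08 in tumor-dissociated JMJD3 cells. The arrays of the JMJD3 groups lay as far apart as the groups did. With JMJD3 it differed by -0.48 ± 0.25 in culture and 0.29 ± 0.25 in tumor-dissociated cells, a difference of 0.77 ± 0.35 (limma adjusted p = 0.746), and of 1.20 (limma adjusted p = 0.375) without the 2 arrays that stood apart. Its intensity was 172 to 238, close to the background level. NDUFA5, an accessory subunit above background on 5 arrays, was the lowest of the complex with JMJD3 in tumor-dissociated cells, at -0.40 ± 0.23 (limma adjusted p = 0.526), and differed by 0.06 without the 2 arrays that stood apart.

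NDUFS8, an iron-sulfur subunit on the path to ubiquinone, was the highest of complex I with JMJD3 in culture, at 0.25 ± 0.18 (limma adjusted p = 1.00). NDUFA10, an accessory subunit, was the highest with JMJD3 in tumor-dissociated cells, at 0.44 ± 0.19 (limma adjusted p = 0.346) and at 0.13 without the 2 arrays that stood apart, and its other probe differed by -0.04. NDUFV2, of the NADH-binding module, was the lowest for origin in JMJD3 cells, at -0.17 ± 0.16. NDUFB2-AS1, NDUFC2 and NDUFS6 were not tested. NDUFC2 read 136 to 172, above background on 1 array, and NDUFS6 read 124 to 161, above background on none.

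Complex II, succinate dehydrogenase, links the chain to the tricarboxylic acid cycle, and SDHA is its catalytic flavoprotein. SDHA measured 10.01 and 10.09 in cultured vector, 10.08 and 10.10 in cultured JMJD3, 10.22 and 10.27 in tumor-dissociated vector, and 10.58 and 10.55 in tumor-dissociated JMJD3 cells. Both tumor-dissociated JMJD3 arrays were the highest, both tumor-dissociated vector arrays came next, and the cultured groups overlapped. Its difference between origins in JMJD3 cells was 0.47 ± 0.14 (0.15 to 0.80) and did not pass (limma adjusted p = 0.0852), while without background correction it was 0.44 and passed (limma adjusted p = 0.0348). Its other probe differed by 0.38 in that comparison. The difference was 0.46 (limma adjusted p = 0.184) without the 2 arrays that stood apart.

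SDHC and SDHD are the membrane anchors that bind ubiquinone. SDHC had 11.14 and 10.89 in cultured vector, 11.13 and 11.04 in cultured JMJD3, 11.24 and 11.30 in tumor-dissociated vector, and 11.47 and 11.34 in tumor-dissociated JMJD3 cells, so that both tumor-dissociated groups lay above the cultured ones. Its differences between origins, 0.25 ± 0.16 and 0.32 ± 0.16, were not called (limma adjusted p = 0.357 and 0.246), and its other probe differed by 0.03 and -0.09. SDHD had the smallest range of the 3, from 10.49 to 10.75 over the 8 arrays, and its differences lay between -0.14 and 0.02.

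Complex III, the cytochrome bc1 complex, had 9 genes tested and none called, with medians of 0.09, 0.09, 0.08 and -0.01 in the same order of comparisons. UQCRC2, a core subunit of the complex, measured 9.96 and 9.82 in cultured vector, 10.06 and 9.99 in cultured JMJD3, 10.31 and 10.27 in tumor-dissociated vector, and 10.34 and 10.62 in tumor-dissociated JMJD3 cells. All 4 tumor-dissociated arrays lay above all 4 cultured ones. The differences between origins were 0.40 ± 0.16 in vector and 0.45 ± 0.16 in JMJD3 cells, neither of them called (limma adjusted p = 0.159 and 0.126). Without the 2 arrays that stood apart they were 0.42 and 0.60 (limma adjusted p = 0.171 and 0.112). UQCRC1, the companion core subunit, differed by -0.09 ± 0.16 and 0.19 ± 0.16 in these comparisons and was the highest of the complex with JMJD3 in tumor-dissociated cells, at 0.22 ± 0.16.

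UQCR10, a small subunit with 3 probes, was the highest of complex III with JMJD3 in culture (0.32 ± 0.22) and the lowest with JMJD3 in tumor-dissociated cells (-0.20 ± 0.22). It was also the lowest for origin in JMJD3 cells (-0.27 ± 0.22), and none of these was called. Its other 2 probes did not share these signs throughout: they differed by -0.01 and 0.16 with JMJD3 in culture, by -0.00 and 0.21 with JMJD3 in tumor-dissociated cells, and by 0.12 and -0.10 for origin in JMJD3 cells. UQCRH, the hinge protein, and UQCRHL, a near copy of it whose signal may not be separable, ranged from 13.94 to 14.11 and from 13.59 to 13.90. Their differences between origins were -0.08 and -0.12 in vector and -0.06 and -0.01 in JMJD3 cells.

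Complex V, the ATP synthase, had 19 genes tested and none called. Its medians were 0.09, 0.02, 0.12 and 0.06 in the same order, with 18, 13, 13 and 12 positive. ATP5IF1, which encodes the protein that blocks ATP hydrolysis by the enzyme, was the highest for origin in both vector and JMJD3 cells. It measured 10.65 and 10.43 in cultured vector, 10.63 and 10.52 in cultured JMJD3, 11.26 and 10.95 in tumor-dissociated vector, and 11.26 and 10.67 in tumor-dissociated JMJD3 cells. The tumor-dissociated arrays lay above the cultured ones, narrowly for JMJD3 replicate 2. The differences were 0.57 ± 0.22 (limma adjusted p = 0.136) and 0.39 ± 0.22 (limma adjusted p = 0.296), and a second, dimmer probe gave -0.12 and 0.20. Without the 2 arrays that stood apart, the first of these was 0.73 and passed (limma adjusted p = 0.0474), and the second was 0.10.

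ATP5F1D, the delta subunit of the ATP synthase, was the highest of complex V with JMJD3. It differed by 0.26 ± 0.19 in culture and by 0.48 ± 0.19 in tumor-dissociated cells (limma adjusted p = 0.316), where its other probe gave -0.04 and leaving out the 2 arrays that stood apart gave 0.11. It was the lowest of the complex for origin in vector cells, at -0.18 ± 0.19. ATP5F1A, the alpha subunit, was the lowest with JMJD3 in culture, at -0.03. ATP5MJ, a small membrane subunit, was the lowest with JMJD3 in tumor-dissociated cells (-0.22 ± 0.21) and for origin in JMJD3 cells (-0.31 ± 0.21). ATP5MC1, ATP5MC2 and ATP5MC3, which encode the same mature subunit c of the rotating ring, differed between origins by -0.05, 0.17 and -0.08 in vector and by 0.07, -0.01 and -0.25 in JMJD3 cells.

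In counts, none of the 76 members was called for JMJD3 in culture, where 0.0886% of all genes were. None was called for JMJD3 in tumor-dissociated cells, where 0.822% were, nor for the difference of the JMJD3 effects, where 0.105% were. For origin in vector cells none of the 76 was called, against 10.1% of all genes, and in JMJD3 cells 1 was, against 5.96%. By limma without adjustment, 0%, 3.95%, 3.95% and 3.95% of the members had p under 0.05 in the 4 group comparisons (0, 3, 3 and 3 genes), against 4.34%, 13.7%, 25.7% and 25% of all genes. For the difference of effects it was 0%, against 6.88%. Large differences were rare. The 95% interval lay within 1 log2 unit on either side of 0 for 75, 75, 74 and 74 members, or 98.7%, 98.7%, 97.4% and 97.4%, against 93.2%, 87.4%, 79.1% and 79.8% of all genes. A difference over 0.5 in size was seen for 0, 1, 1 and 2 members, against 4.53%, 11.7%, 22% and 21.3% of all genes. Members were bright, with 63 of 76 in the brightest 25% of the genes tested, and the contrast with those genes was smaller. Of those bright genes 97%, 93.6%, 88.4% and 86.8% had such an interval, and 1.68%, 6.86%, 13.7% and 15.5% differed by over 0.5. Their shares with unadjusted limma p under 0.05 were 1.22%, 7.86%, 18.8% and 21.7%. Being flat was not particular to the members. Of 74 genes of cytosolic ribosomal proteins none was called, and 0%, 1.35%, 2.7% and 8.11% had such a p. Of these genes 0%, 0%, 1.35% and 1.35% differed by over 0.5. Of 79 genes named MRPL or MRPS, 0, 0, 1 and 2 were called, and 0%, 1.27%, 2.53% and 11.4% differed by over 0.5.

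With all arrays the small differences were mostly positive. With JMJD3 in culture 64 of 76 members (84.2%) had a positive difference, against 48.1% of all genes, with medians of 0.07 and -0.01. With JMJD3 in tumor-dissociated cells 54 (71.1%) were positive, against 49.8%, and the median was 0.04. For origin, 57 (75%) were positive in vector and 52 (68.4%) in JMJD3 cells, against 47.1% and 48.8%, with medians of 0.13 and 0.10. Among 79 genes named MRPL or MRPS, mostly for proteins of the mitochondrial ribosome, 58 (73.4%) were positive with JMJD3 in culture, with a median of 0.06. In the other comparisons 49.4%, 39.2% and 27.8% of these genes were positive, in the order above. Without the 2 arrays that stood apart, the positive members numbered 16 for JMJD3 in tumor-dissociated cells (21.1%, against 48.6% of all genes), 68 for origin in vector cells (89.5%, against 46.6%) and 31 for origin in JMJD3 cells (40.8%, against 47.3%). The first of these counts sets vector replicate 1 against JMJD3 replicate 2. Over the brightest 25% of genes the medians were 0.00, -0.01, -0.03 and -0.04. Members share probe design, arrays and control groups, so these shares are descriptions and no test is given. Both origin comparisons use the tumor-dissociated arrays on which 5 or 6 of 9 fibroblast markers were higher, and the part of those cells or that state in the medians was not tested.

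Groups without overlap were counted next. With JMJD3 in culture, both arrays lay above both vector arrays for 28 members and below for 1, where all genes gave 17.8% and 18.5%. In tumor-dissociated cells this held for 8 and 2 members, where all genes gave 19% and 19.6%. For origin it held for 24 and 3 members in vector cells (26.7% and 30.8% of all genes) and for 19 and 2 in JMJD3 cells (26.6% and 29% of all genes). With all arrays, members that lay apart and lower were few in every comparison. Without the 2 arrays that stood apart, 62 lay apart higher and 5 lower for origin in vector cells (37.9% and 44.5% of all genes), and 23 and 32 in JMJD3 cells (36.7% and 41.4% of all genes).

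**Figure D2:**
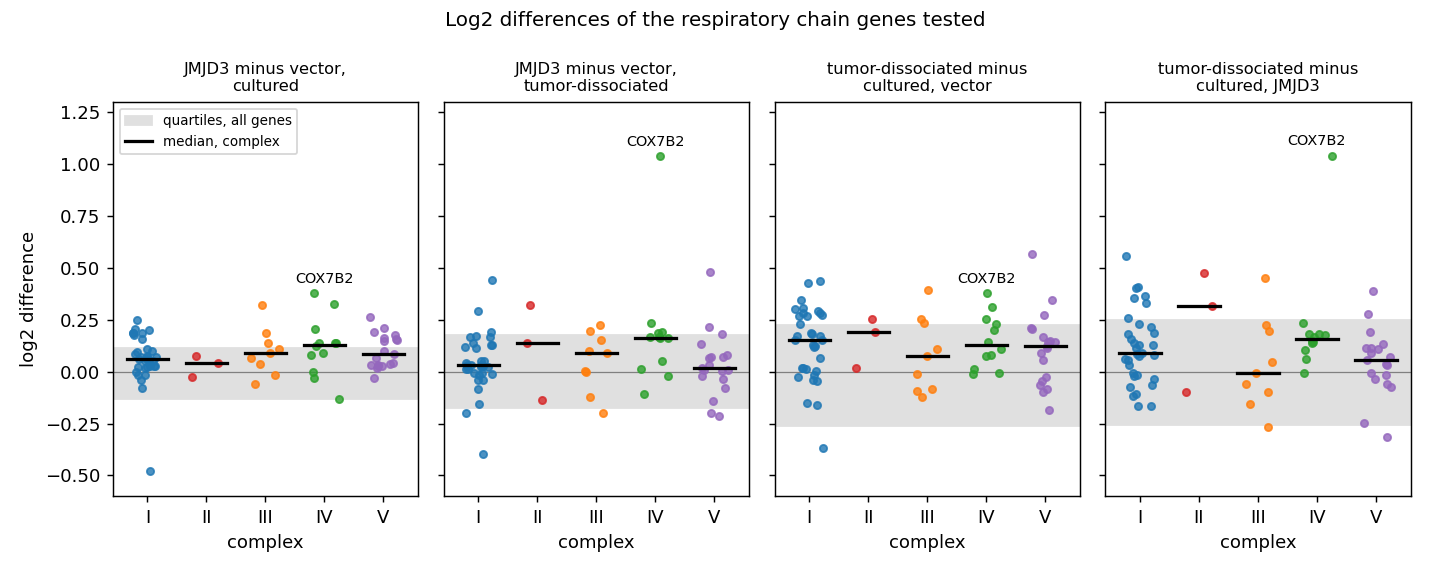
Log2 difference of each of the 76 members tested in the 4 group comparisons, by complex, with the median of each complex as a line and the range between the quartiles of all 12415 genes as a grey band. Points lie mostly between -0.5 and 0.5, and COX7B2 stands at 1.04 in the comparisons that involve tumor-dissociated JMJD3 cells.

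The widest shared movement of the respiratory chain genes was between arrays of the same group. In tumor-dissociated vector cells replicate 1 was above replicate 2 for 65 of 76 members (85.5%), by a median of 0.25, while this held for 49.2% of all genes. In tumor-dissociated JMJD3 cells it held for 67 members (88.2%), by a median of 0.24, against 53.3% of all genes. The members higher on replicate 1 in both groups numbered 61. In culture the replicate difference was smaller, with 53 members (69.7%, median 0.07) in vector and 49 (64.5%, median 0.05) in JMJD3 cells.

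By array, the median member lay -0.07 and -0.14 from its own mean over the 8 arrays in cultured vector cells, 0.01 and -0.03 in cultured JMJD3 cells, 0.15 and -0.11 in tumor-dissociated vector cells, and 0.21 and -0.03 in tumor-dissociated JMJD3 cells. Replicate 1 of each tumor-dissociated group was high and replicate 2 was close to the cultured arrays. The medians over all genes lay between -0.02 and 0.02 on every array. Sorted columns differed by at most 0.00575 (log2), which holds such medians close together, so they are no independent check. Members above their own mean numbered 17 and 14 in cultured vector, 39 and 30 in cultured JMJD3, 63 and 17 in tumor-dissociated vector, and 65 and 33 in tumor-dissociated JMJD3 cells.

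The split ran through complexes I, III, IV and V. In vector cells the median difference between replicates was 0.32 for complex I, 0.15 for III, 0.25 for IV and 0.25 for V, and in JMJD3 cells 0.26, 0.19, 0.28 and 0.17. Complex II showed less, at -0.05 and 0.10. In tumor-dissociated JMJD3 cells all 12 complex IV genes were higher on replicate 1. Members ranged in this difference from -0.60 (NDUFA5) to 0.67 (NDUFA7) in vector and from -0.53 (NDUFS1) to 0.71 (ATP5MK) in JMJD3 cells. Across the 76 members the replicate differences of these groups had a Pearson correlation of 0.49, and across all genes 0.10. These points share their arrays, and the value is a description.

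Genes of the ribosomes were set beside the members, as large bright families of other function, chosen after the split was seen. Among 74 genes of cytosolic ribosomal proteins replicate 1 was higher for 42 (56.8%) in tumor-dissociated vector and 45 (60.8%) in tumor-dissociated JMJD3 cells, with medians of 0.03 and 0.03. Among 79 genes named MRPL or MRPS, most of which encode proteins of the mitochondrial ribosome, it was higher for 67 (84.8%, median 0.16) and 47 (59.5%, median 0.06). That name also took in the pseudogenes MRPL42P5 and MRPS31P5 and the antisense transcript MRPL20-AS1. SOX10 moved the opposite way in the JMJD3 group, at 10.08 on replicate 1 and 11.02 on replicate 2, and was 10.51 and 7.0 in the vector group. Whether these arrays differ by culture, tumor or handling was not tested.

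The medians between origins rested on replicate 1. With replicate 1 of both tumor-dissociated groups left out, they were -0.01 in vector and -0.04 in JMJD3 cells, and with replicate 2 of both left out, 0.25 and 0.24. The JMJD3 median in tumor-dissociated cells was 0.04 with all arrays and -0.21 without the 2 arrays that stood apart, which leaves 1 array a group. That fit sets vector replicate 1 against JMJD3 replicate 2, across the split between replicates. Between same-numbered arrays this median was 0.04 for arrays 1 only and 0.08 for arrays 2 only. The JMJD3 median in culture, which uses no tumor-dissociated array, was 0.07 and ranged from 0.06 to 0.10 when 1 array was left out.

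**Figure D3:**
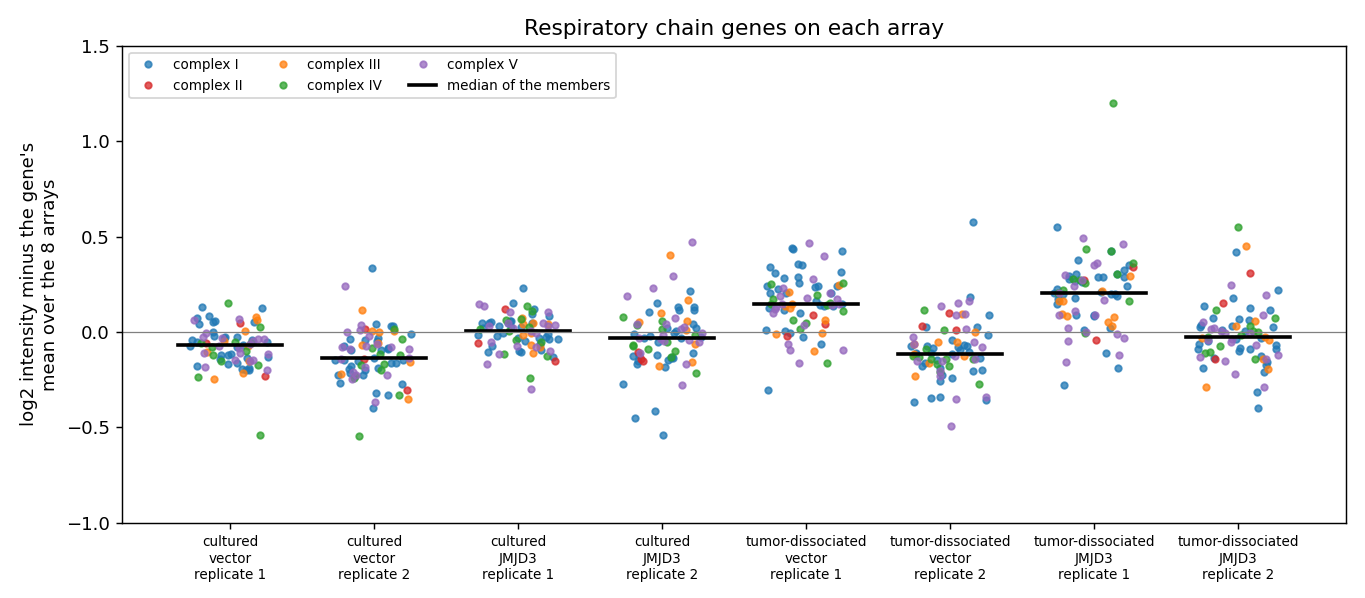
Log2 intensity of the 76 members tested minus each gene's own mean over the 8 arrays, by array, coloured by complex, with the median of the members as a line. The median is highest on replicate 1 of the tumor-dissociated groups (0.15 and 0.21) and lowest on replicate 2 of the cultured vector cells (-0.14).

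**Figure D4:**
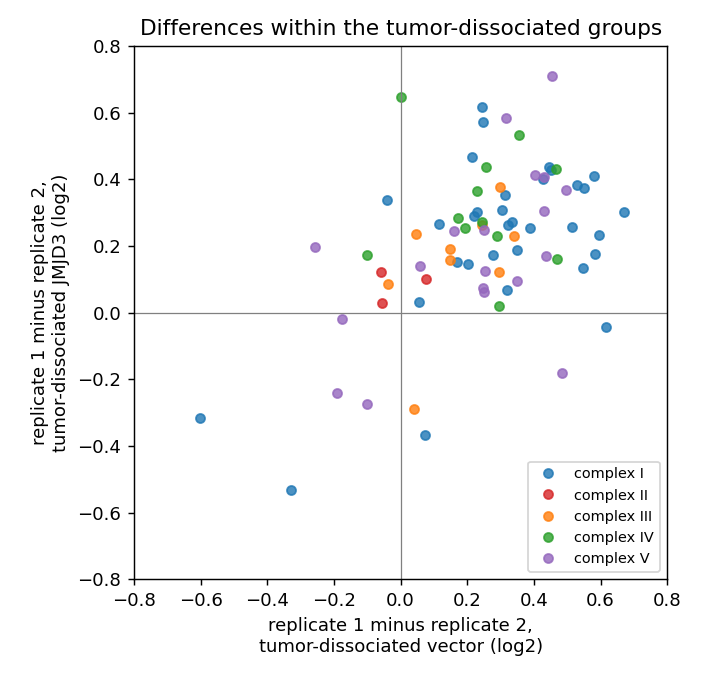
Replicate 1 minus replicate 2 for each member in tumor-dissociated vector cells (horizontal axis) and tumor-dissociated JMJD3 cells (vertical axis), both in log2 units and coloured by complex. The 61 members higher on replicate 1 in both groups lie in the upper right.

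Probes of the same gene did not always move together. Of 21 members with several probes above background, all probes had the same sign for 14, 13, 15 and 9 in the 4 comparisons, with a median spread between probes of 0.09, 0.12, 0.10 and 0.18. The largest spread was 0.69, for ATP5IF1 between origins in vector cells.

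Other genes of respiration were read from 10 lists, which were chosen with results of these data known. No gene of these lists was called for JMJD3 in culture or in tumor-dissociated cells, where only 0.0886% and 0.822% of all genes were. For origin in vector cells, 2 of 17 electron carriers and cytochromes fell and none rose, which is near the 10.1% of all genes called. GPD2, the mitochondrial glycerol 3-phosphate dehydrogenase, fell by 0.78 ± 0.19 (limma adjusted p = 0.0332), and COQ8A, a kinase-like protein needed to make ubiquinone, fell by 0.87 ± 0.20 (limma adjusted p = 0.0263). They differed by -0.86 and -0.73 (limma adjusted p = 0.0403 and 0.0428) without the 2 arrays that stood apart. UCP2, an uncoupling protein family member of the inner membrane, rose by 1.41 ± 0.21 (limma adjusted p = 0.0041) and was the only one of 6 tested carriers called. With the 2 arrays that stood apart left out, it differed by 1.47 in vector (limma adjusted p = 0.00401) and by 0.99 in JMJD3 cells, where it then passed (limma adjusted p = 0.0426).

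For origin in JMJD3 cells, 1 of 10 assembly factors of complexes II and III fell, where 5.96% of all genes were called. This was LYRM7, needed to insert the iron-sulfur protein into complex III. It fell by 0.64 ± 0.15 (limma adjusted p = 0.042), and without the 2 arrays that stood apart the difference was -0.59 and did not pass (limma adjusted p = 0.111). None of 16 assembly factors of complex I, 21 of complex IV and 4 genes of complex V assembly was called in a group comparison. NDUFAF6, a complex I assembly factor, and TMEM70, a complex V assembly factor, passed for any difference among the 4 groups (limma adjusted p = 0.0442 and 0.0344), with differences between origins in JMJD3 cells of -0.75 and -0.63. Neither passed without the 2 arrays that stood apart (limma adjusted p = 0.0914 and 0.108). None of 15 tricarboxylic acid cycle genes and none of 14 regulators of mitochondrial biogenesis was called. Of all genes, 10.1% and 5.96% were called for origin in vector and JMJD3 cells, and 11.9% for any difference. Lists this short would hold few calls at those shares.

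Among those regulators, PPARGC1A encodes the coactivator PGC-1α, which acts on respiratory genes and is known to be driven by MITF in melanoma. PPARGC1A measured 5.60 and 5.37 in cultured vector, 5.88 and 5.49 in cultured JMJD3, 5.95 and 6.46 in tumor-dissociated vector, and 6.57 and 6.14 in tumor-dissociated JMJD3 cells. These values lay within or below the range of NDUFS1, which read 172 to 238 intensity units, close to the background level of 161. The tumor-dissociated arrays lay above the cultured ones, and the differences, 0.72 ± 0.23 and 0.67 ± 0.23, were not called (limma adjusted p = 0.0868 and 0.122). They were 0.47 and 0.45 without the 2 arrays that stood apart. MITF differed by 0.59 ± 0.18 and 0.48 ± 0.18 (limma adjusted p = 0.067 and 0.137), and without those arrays by 0.67 in vector cells, which passed (limma adjusted p = 0.0467), and by 0.67 in JMJD3 cells (limma adjusted p = 0.0822). CYC1, the cytochrome of complex III, and CYCS, cytochrome c, differed between origins by 0.13 and -0.37 in vector and by 0.07 and -0.16 in JMJD3 cells, and neither was called. The 13 subunits encoded in mitochondrial DNA were not analysed here.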

How the data were processed

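Per the labels' protocols, RNA was labelled with the Illumina TotalPrep kit, and per the submitters' processing notes GenomeStudio was used (framework 2011.1, module 1.9.0, per the series' design text). The deposited values are linear intensities of 47323 probes; the sources used here name no normalization, but sorted columns differed by at most 0.00575 (log2) and no background had been subtracted. The intensities were corrected with normexp (offset 16) and turned into log2 values. A further table was not used: its 16 columns match no sample label. The design expected detection p-values; probes were instead kept where the intensity exceeded 161.352, the upper 0.01 point of a background distribution around the mode of 139.729, on at least 2 of 8 arrays (22287 probes). Symbols came from the platform annotation: 30113 probes had 1 symbol, 8 several and 17202 none. All 84 member symbols stood in RefSeq.

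limma 3.58.1 in R 4.3.3 fitted 4 group means over 8 arrays (4 residual and 5.114 prior degrees of freedom), with 5 contrasts and Benjamini-Hochberg adjustment over 12415 genes. The procedure was tested on simulated data. Errors are SE of a difference. The number of arrays limits the precision. Named are called members, the highest and lowest member of each complex and comparison, the SDH genes, isoforms with their counterparts, and called genes, PPARGC1A, MITF, CYC1 and CYCS of the lists; NDUFB5, UQCRH, NDUFC2, NDUFS6, NDUFA7 and ATP5MK were added after their values were seen. Members, lists and motifs were chosen with earlier results of these data known. The 22 alternatives concern background, filter, scaling, probe choice, the model and the arrays included.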

Additional observations from a re-analysis of the deposited data

How the results depend on the processing

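Over 22 alternatives no call turned its direction. The medians of the members, which have no test, changed sign in all comparisons but JMJD3 in culture. The count of members called was 0 in every alternative for JMJD3 in culture and for the difference of effects. For JMJD3 in tumor-dissociated cells it was 1 (COX7B2) with an intensity trend and robust prior and with only arrays 1 of the tumor-dissociated groups, and 0 to 1 when 1 array was left out. For origin in vector cells it was 1 (ATP5IF1) without the 2 arrays that stood apart and with tumor-dissociated arrays 1 only. For origin in JMJD3 cells it was 2 without background correction (COX7B2 and SDHA) and with tumor-dissociated arrays 1 only (COX7B2 and ATP5IF1). It was 0 without the arrays that stood apart, with tumor-dissociated arrays 2 only and with only the groups compared, and 0 to 1 when 1 array was left out. For any difference it was 2 without background correction and with tumor-dissociated arrays 1 only. Fits with tumor-dissociated arrays 1 or 2 only were chosen after seeing the data.

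When 1 array was left out, the median of the members ranged from 0.0601 to 0.0973 for JMJD3 in culture, from -0.0881 to 0.1795 for JMJD3 in tumor-dissociated cells, from -0.0084 to 0.2526 for origin in vector and from -0.0393 to 0.2367 for origin in JMJD3 cells. Without the 2 arrays that stood apart the second was -0.2085 and the last -0.0393. With tumor-dissociated arrays 2 only the origin medians were -0.0084 and -0.0393, and with arrays 1 only the last was 0.2367. The JMJD3 median in tumor-dissociated cells was 0.042 with arrays 1 only and 0.076 with arrays 2 only. A lone array left in a group is assumed to vary like the other groups. The cause was not tested.

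With the replicate number as a block, the counts of members called were the same and COX7B2 had an adjusted p of 0.0235 (limma, 1.04 log2). With 2 numbers a group, the labels do not show that the numbers pair the arrays. Over all genes the half-differences of same-numbered arrays correlated by 0.371 between the cultured groups and by 0.105 between the tumor-dissociated ones. Small differences near background, as for NDUFS1, NDUFA5 and PPARGC1A, are limited by dim signal.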
